A study of Mus musculus with 22 samples.

Results

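Septins are GTP-binding cytoskeletal proteins that join into mixed complexes, which pair end to end into filaments and rings under the plasma membrane. Mammalian septins fall into the SEPT2, SEPT3, SEPT6 and SEPT7 groups, and a complex takes members from different groups, with Sept7 as the partner that most complexes need. In hippocampal neurons septin filaments are known from the base of dendritic spines and from dendrite branch points, where they hold back diffusion of membrane proteins. The family described here has 9 members, Sept2, Sept3, Sept4, Sept5, Sept6, Sept7, Sept8, Sept9 and Sept11, taken by gene symbol from the 29848 genes of the deposited tables. A further 4 septin genes of the tables, Sept1, Sept10, Sept12 and Sept14, are not among them and are described apart. The members were chosen by symbol with earlier results of these libraries known, and the family was selected on measured values, among them the lower paired-end coding level of Sept7 in fear conditioned than in home cage dendrite immunoprecipitates. That contrast, and the difference of effects built on it, are therefore given as values, with no test for the members. Whether other contrasts entered the choice is not known, so the adjusted p-values given for them describe the fit across all genes.

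RNA came from dissections of hippocampal CA1, the field whose pyramidal cells keep cell bodies (soma) and dendrites in separate layers. All groups were Camk2a-tTA/tetO-EGFP-L10a double transgenics on a C57BL/6 background, so fear conditioned and home cage groups both carry the tag: the Camk2a promoter, active in excitatory forebrain neurons, drives a transactivator that switches on EGFP fused to ribosomal protein L10a, and the GFP antibody HtzGFP-19C8 pulled down tagged ribosomes. The immunoprecipitates (IP) were fear conditioned dendrite 1 and 2, home cage dendrite 1 and 2, fear conditioned soma 1 and 2, and home cage soma 1 and 2, and the supernatants (SN), which hold RNA left unbound, were fear conditioned dendrite 2, home cage dendrite 2 and fear conditioned soma 2. Fear conditioning teaches an animal to expect a shock in a place or after a signal, and the labels give no age, sex or time after training. The 22 samples are 11 preparations, sequenced in both paired-end and single-end runs; both samples of a preparation were counted once. The labels do not say that preparations came from separate animals, so p-values take in the spread among these preparations and no more, which may be technical. The unit is FPKM, fragments per kilobase of transcript and per M mapped fragments, and each gene has 1 value for a coding part (5′ UTR and coding sequence, with the first stretch of the 3′ UTR) and 1 for the rest of the 3′ UTR.

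Depth was estimated from the spacing of low FPKM. It was between 5.69 and 35.3 M fragments in paired-end libraries and between 0.515 and 10.6 M reads in single-end ones, with home cage dendrite IP 1 the shallowest paired-end run and home cage dendrite IP 2 the shallowest single-end run. Hprt, a gene that nearly every cell uses, was listed at 0 in 3 of 8 paired-end and 4 of 8 single-end IPs, so a septin value of 0 is called listed at 0 and not absent. The IPs differed in how many genes were above 0, from 3098 in home cage soma IP 2 to 11726 in fear conditioned dendrite IP 1 of the paired-end table, against 9982 to 12676 in the SNs. Summed markers of CA1 pyramidal neurons (8 genes, Camk2a and Nrgn among them) came to 275 and 732 FPKM in fear conditioned dendrite IPs, 78.3 and 710.3 FPKM in home cage dendrite IPs, 61.0 and 270.1 FPKM in fear conditioned soma IPs and 18.4 and 5.96 FPKM in home cage soma IPs. Summed astrocyte markers (10 genes) came to 438 and 161, 134 and 299, 81.6 and 5.06, and 11.7 and 1.40 FPKM in the same order of IPs, so the IPs also held RNA that marks cells without the tag. In bulk dissections, fewer cells of a type and less RNA per cell cannot be told apart.

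The genes lie on 7 chromosomes in the authors' mm9 annotation. Sept7 is on the plus strand of chromosome 9 (25060169 to 25116150), with 2 models whose coding parts measure 1577 and 698 bases; 136 bases of the 3′ UTR part also belong to the coding part of another model. Sept3 is on the plus strand of chromosome 15 (82105702 to 82124285), with 5 models. Sept4, Sept8 and Sept9 are on the plus strand of chromosome 11 (87394633 to 87404041, 53333302 to 53357598 and 117127560 to 117223639). Sept2 is on the plus strand of chromosome 1 (95375638 to 95406309), Sept11 on the plus strand of chromosome 5 (93522483 to 93605471), Sept5 on the minus strand of chromosome 16 (18621904 to 18630031) and Sept6 on the minus strand of chromosome X (34453439 to 34529690). Sept5 shares 2030 exon bases of its own strand with a row named Cdcrel-1, an older name of the same gene, so that reads of 1 gene are split between these rows. Their sum is given as Sept5 plus Cdcrel-1. Sept5 also shares 593 exon bases of its own strand with the row of Gp1bb, and Sept7 shares 103 with a row named mKIAA4020. How reads in these shared bases were assigned is not known.

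The unbound RNA gave the steadiest account of the family. All 9 members were above 0 in all 3 SNs in both runs, 27 of 27 values, whereas in the IPs 34 of 72 member values were above 0 in both runs, 13 in the paired-end run only, 8 in the single-end run only and 17 in neither. Estimated depth also differed: 24.6 to 35.3 M fragments in paired-end SNs against 5.69 to 30.0 M in paired-end IPs. In the single-end run it was 6.90 to 10.6 M reads in SNs against 0.515 to 4.36 M in IPs. The part of depth in the values listed at 0 was not tested. Sept3, a neuronal septin of the SEPT3 group, had the highest level, 16.9 FPKM in the fear conditioned dendrite SN, 10.8 FPKM in the home cage dendrite SN and 6.20 FPKM in the fear conditioned soma SN of the paired-end table (11.3 ± 5.35, SD, n = 3). Sept5 plus Cdcrel-1, of the SEPT2 group and known from presynaptic terminals, where it binds the vesicle fusion machinery, came next at 3.92, 4.27 and 4.92 FPKM in the same SNs (4.37 ± 0.503), with a highest value 1.25 times the lowest, the smallest such ratio in the family. Sept8, of the SEPT6 group, averaged 3.48 ± 1.69 FPKM, Sept11 of the same group 3.34 ± 4.36, Sept7 2.88 ± 2.74 and Sept4 of the SEPT2 group 2.56 ± 1.92 FPKM. Sept6, also of the SEPT6 group, averaged 0.722 ± 0.790, Sept2 0.569 ± 0.539 and Sept9, the widely expressed member of the SEPT3 group, 0.318 ± 0.252 FPKM. In this order the gap between Sept3 and the next gene was the sole one above the larger SD of its pair, in the paired-end and in the single-end run, so the other neighbours did not differ beyond their spread. The single-end run also put Sept3 first at 24.4 ± 11.7, Sept5 plus Cdcrel-1 second at 10.9 ± 2.64 and Sept8 after it at 7.56 ± 4.03 FPKM. Sept3 made up 49.7, 36.5 and 44.3% of the summed FPKM of the 9 septin rows in the 3 SNs of the paired-end table. That sum holds the Sept5 row without Cdcrel-1, and with Cdcrel-1 added these shares would be smaller.

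**Figure D1:**
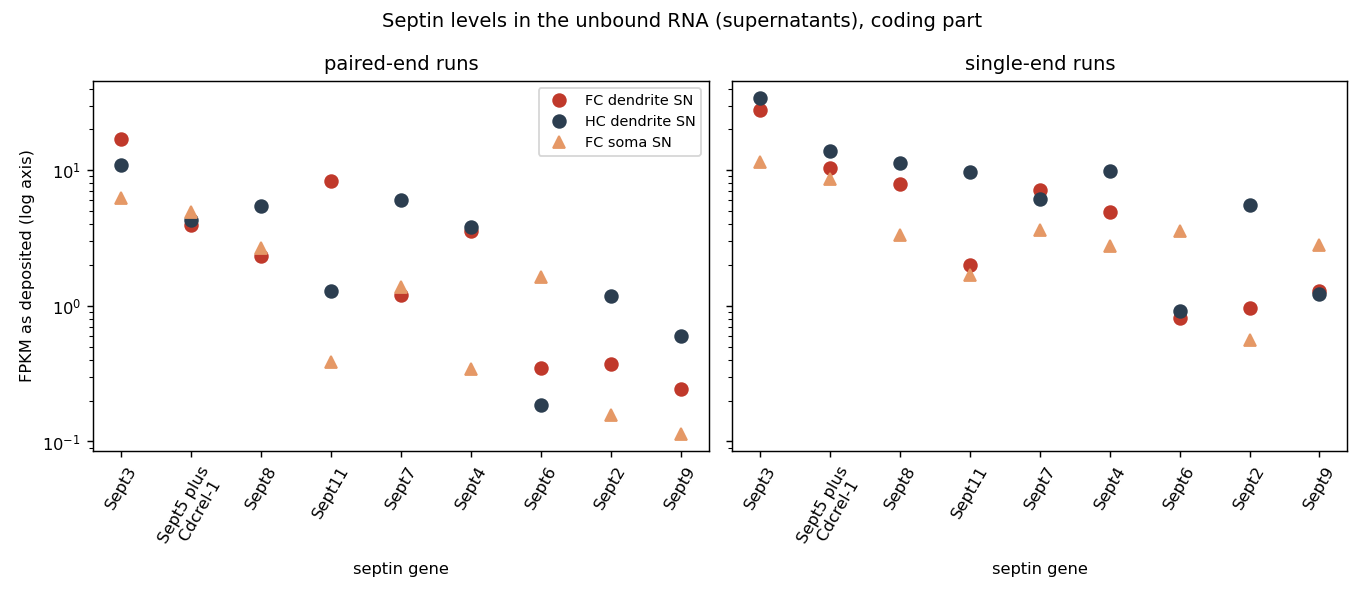
Septin levels of the coding part in the 3 supernatants (vertical log axis, FPKM as deposited), by gene along the horizontal axis, for paired-end runs on the left and single-end runs on the right; each symbol is 1 supernatant. Sept3 is at or near the top in every supernatant, from 6.20 to 16.9 FPKM in the paired-end runs, and Sept5 plus Cdcrel-1 has the tightest symbols there, from 3.92 to 4.92 FPKM.

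In the IPs the family's total, taken over the 9 rows without Cdcrel-1, was uneven. The 9 members summed in the paired-end table to 24.3 and 7.07 FPKM in fear conditioned dendrite IPs, 225 and 46.4 FPKM in home cage dendrite IPs, 27.3 and 66.3 FPKM in fear conditioned soma IPs, and 2.15 and 0.175 FPKM in home cage soma IPs, beside 34.0, 29.8 and 14.0 FPKM in the SNs. In that table home cage dendrite IP 1 held the highest sum and the home cage soma IPs the 2 lowest. Sept3 and Sept7 carried the high sums there: Sept3 made up 53.3% and Sept7 44.5% of the sum in home cage dendrite IP 1, and Sept7 made up 73.2% of it in fear conditioned soma IP 2. In home cage soma IP 2, the sum of 0.175 FPKM rested on 3 members, each at about 1 fragment. The single-end run gave another order. Its highest sum was 122.4 FPKM in home cage dendrite IP 2, against 27.2 FPKM in IP 1, where Sept11 made up 86.7% and Sept3 was listed at 0. Fear conditioned dendrite IP 2, at 8.04 FPKM, lay below home cage soma IP 1, at 10.2 FPKM.

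**Figure D2:**
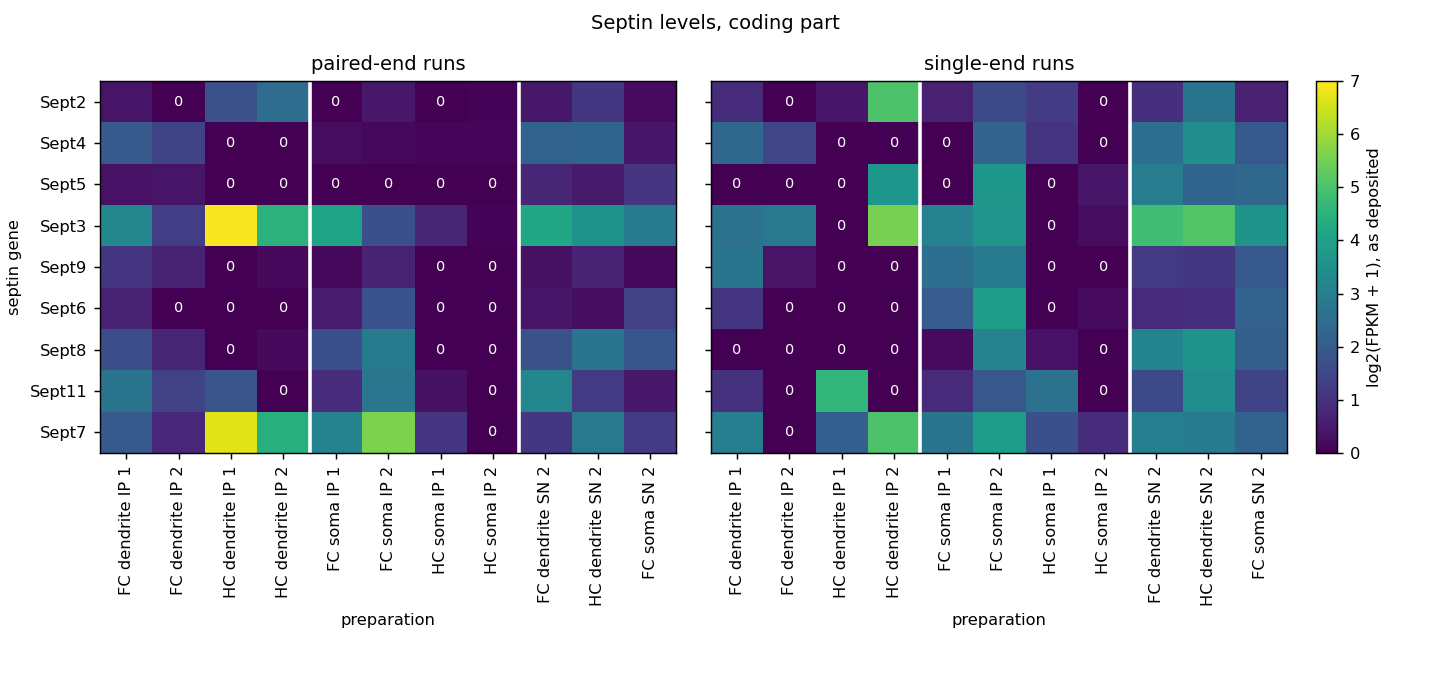
Level of each septin (rows, coding part) in each preparation (columns; FC fear conditioned, HC home cage) as log2(FPKM + 1), paired-end runs on the left and single-end runs on the right; a white 0 marks a value listed at 0, and the Sept5 row is without Cdcrel-1. Supernatant columns hold no 0, while immunoprecipitate columns mix high levels, such as Sept3 at 120.0 FPKM in home cage dendrite IP 1 of the paired-end run, with values of 0.

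Sept3 had, in the paired-end coding part, 8.51 and 1.42 FPKM in fear conditioned dendrite IPs and 120.0 and 21.5 FPKM in home cage dendrite IPs. The fear conditioned values lay below the home cage values with no overlap. In the soma the order was the other way: Sept3 had 15.7 and 2.28 FPKM in fear conditioned IPs and 0.694 and 0.0569 FPKM in home cage IPs, again with no overlap. About 267 and 39.1 fragments stood behind the fear conditioned dendrite values, about 1013 and 562 behind the home cage dendrite values, about 444 and 102 behind the fear conditioned soma values, and about 14.0 and 1.20 behind the home cage soma values.

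Sept7 followed the same outline. It had 2.96 and 0.756 FPKM in fear conditioned dendrite IPs and 100.2 and 20.0 FPKM in home cage dendrite IPs, without overlap. In the soma it had 7.74 and 48.5 FPKM in fear conditioned IPs, and 1.12 FPKM in home cage IP 1 and a listed 0 in home cage IP 2. Fear conditioned libraries were thus the lower ones in dendrite and the higher ones in soma for both genes.

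The single-end run repeated this outline for the soma but only in part for the dendrite. Sept3 had 5.09 and 6.01 FPKM in fear conditioned dendrite IPs, and a listed 0 and 46.3 FPKM in home cage dendrite IPs 1 and 2. Home cage dendrite IP 1, the highest library for Sept3 in the paired-end run, was thus listed at 0 in the single-end run, where 1 read is worth 0.301 FPKM. Sept7 had 6.91 FPKM and a listed 0 in fear conditioned dendrite IPs against 3.27 and 32.3 FPKM in home cage dendrite IPs, and the groups overlapped. In the soma, single-end Sept3 was at 7.60 and 11.5 FPKM in fear conditioned IPs, and listed at 0 and at 0.182 FPKM in home cage IPs; Sept7 was at 5.60 and 14.2 FPKM and at 2.27 and 0.847 FPKM, with no overlap for either gene.

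The rest of the 3′ UTR, a second readout of the same rows, gave another order in the dendrite. Sept3 had 7.20 and 39.7 FPKM there in fear conditioned dendrite IPs and 2.30 and 15.8 FPKM in home cage dendrite IPs of the paired-end table, overlapping groups. Sept7 had 3.24 and 15.2 FPKM and 0.832 and 170.1 FPKM in these IPs, again overlapping. In the soma, the 3′ UTR part of Sept3 was at 6.51 and 7.13 FPKM in fear conditioned IPs and at 0.372 and 0.0523 FPKM in home cage IPs, without overlap as in the coding part, while Sept7 was at 0.461 and 1.08 FPKM and at 0.0300 and 0.265 FPKM. The ratio of the 3′ UTR part to the coding part of Sept3 was 0.973, 0.970 and 1.02 in the fear conditioned dendrite, home cage dendrite and fear conditioned soma SNs, but ran from 0.0192 in home cage dendrite IP 1 to 28.0 in fear conditioned dendrite IP 2. For Sept7 the ratio was 2.02, 0.874 and 1.22 in the SNs and ran from 0.00830 to 20.1 in the 7 IPs with a coding value above 0. Each row sums several models, 5 for Sept3 with 3′ UTR parts of 412 to 3371 bases and 267 bases in both parts, so its parts need not come from the same transcripts. The parts of Sept3 had like levels in unbound RNA, while in single IPs the coding part was up to 52.2-fold higher or the 3′ UTR part up to 28.0-fold higher.

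**Figure D3:**
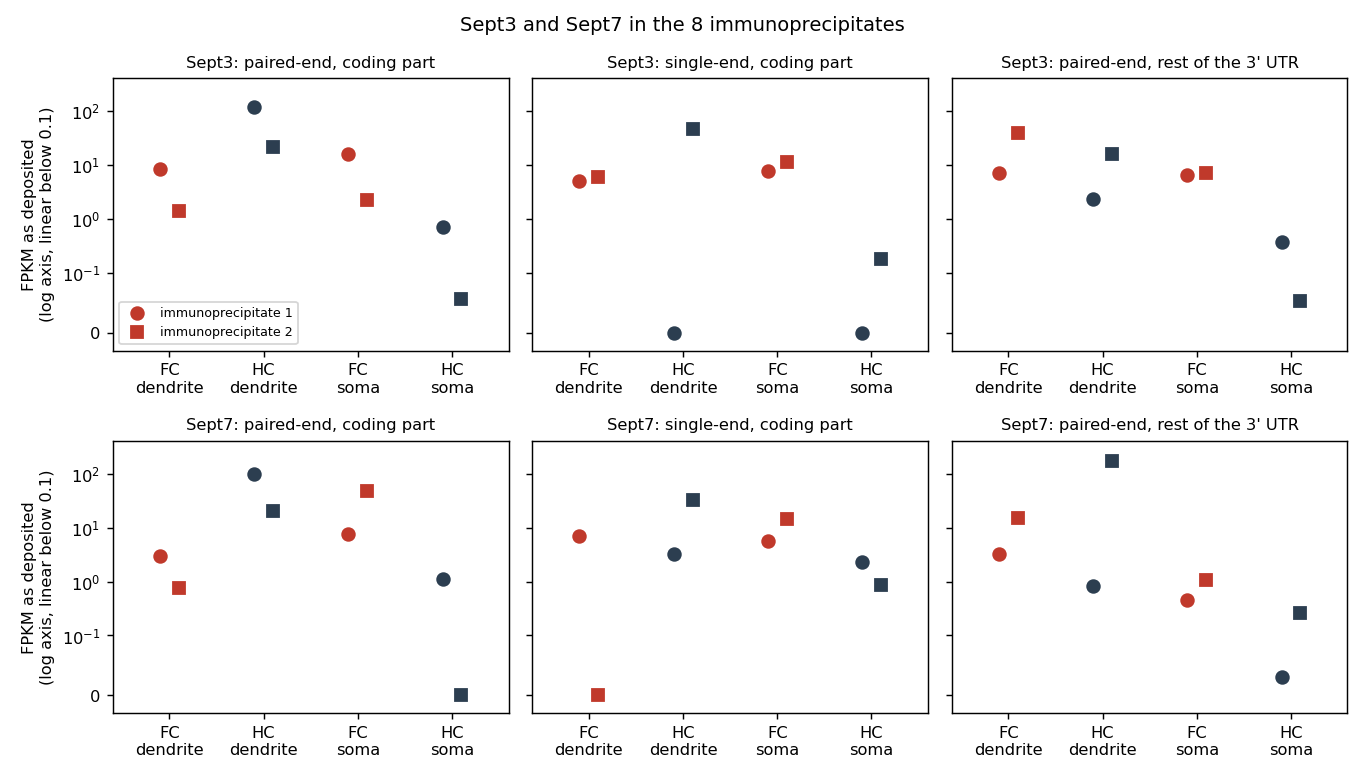
Sept3 (top) and Sept7 (bottom) in the 8 immunoprecipitates, in FPKM as deposited on an axis that is logarithmic above 0.1 and linear below it; columns show the paired-end coding part, the single-end coding part and the paired-end rest of the 3′ UTR, red is fear conditioned (FC), dark blue home cage (HC), circles are immunoprecipitate 1 and squares immunoprecipitate 2. The non-overlapping dendrite groups of the left panels (Sept7 2.96 and 0.756 against 100.2 and 20.0) overlap in the middle and right panels. In FPKM as deposited, fear conditioned soma lies above home cage soma in all 6 panels. After scaling, the log2 difference of Sept7 in soma was -0.30 in the 3′ UTR part.

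The fit behind the log2 differences used FPKM scaled between libraries, log2(scaled FPKM + 1), and limma with Benjamini-Hochberg adjustment over every gene whose scaled FPKM averaged 1 or more. Among the IPs 3054 genes passed this minimum, and 3 of the 9 members did, Sept3, Sept7 and Sept11; the rows of Sept2, Sept4, Sept5, Sept6, Sept8 and Sept9 did not. For fear conditioned against home cage dendrite IPs the fitted log2 difference was -3.97 (SE 1.56) for Sept3, -4.49 (SE 1.55) for Sept7 and 0.51 (SE 1.14) for Sept11, beside a median of 0.10 over all genes tested. Of all genes tested, 0% passed an adjusted p of 0.05 and 3.34% had an unadjusted p under 0.05, and in 8.19% the fear conditioned libraries lay below the home cage libraries without overlap, as in 2 of the 3 septins; in 24.7% they lay above. The difference of the fear conditioning effect, dendrite minus soma, was -5.82 (SE 2.21) for Sept3, -7.67 (SE 2.20) for Sept7 and -0.75 (SE 1.61) for Sept11, beside a median of -0.63; here too 0% of genes passed, and 3.67% had an unadjusted p under 0.05. In the single-end table the dendrite difference was -0.21 (SE 1.62) for Sept3 and -2.25 (SE 1.47) for Sept7, and in the 3′ UTR part 0.58 (SE 1.55) and -1.69 (SE 1.84).

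For fear conditioned against home cage soma IPs, Sept7 differed by a log2 of 3.19 (SE 1.55, limma adjusted p = 0.549), Sept3 by 1.86 (SE 1.56, adjusted p = 0.605) and Sept11 by 1.26 (SE 1.14, adjusted p = 0.633). None of the 3 passed, and neither did any of the 3054 genes (0%, while 8.32% had an unadjusted p under 0.05). In all 3 septins the fear conditioned libraries lay above the home cage libraries without overlap, as they did in 34.3% of genes (7.40% the other way), and the median over all genes was 0.54. Pyramidal neuron markers were also higher in fear conditioned soma IPs, with deposited sums of 61.0 and 270.1 FPKM against 18.4 and 5.96 FPKM. Scaled over all 11 libraries, the sums were 44.9 and 137.7 against 37.2 and 28.2 FPKM, a smaller gap. Of the 8 genes, 8 and 7 were above 0 in fear conditioned soma IPs and 5 and 4 in home cage soma IPs. Rasgrf2 and Mpped1 were listed at 0 in both home cage soma IPs, Nrgn in IP 1, and Wfs1 and Fibcd1, which mark CA1 pyramidal cells, in IP 2. The part of these markers in the result was not tested. In the 3′ UTR part the Sept7 difference was -0.30 (SE 1.84) after scaling, although its deposited FPKM were higher in the fear conditioned IPs. The Sept11 difference also took the other sign outside the paired-end coding part, at -0.58 (SE 1.65) in the single-end table and -2.08 (SE 1.98) in the 3′ UTR part.

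Sept11, a SEPT6 group member known from dendritic branches and spine necks, was tested among the IPs as well. It had 5.51 and 1.62 FPKM in fear conditioned dendrite IPs, and 2.56 FPKM and a listed 0 in home cage dendrite IPs, which overlap. In the soma it had 0.868 and 5.70 FPKM in fear conditioned IPs, and 0.240 FPKM and a listed 0 in home cage IPs. Its 3′ UTR part was listed at 92.9 FPKM in home cage soma IP 1, where the coding part had 0.240 FPKM, and at 7.66 FPKM in the single-end run of that preparation, whose coding part had 5.25 FPKM. In the SNs its coding part had the largest ratio of highest to lowest value in the family, 21.7, at 8.35 FPKM in the fear conditioned dendrite SN, 1.29 FPKM in the home cage dendrite SN and 0.385 FPKM in the fear conditioned soma SN.

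Between dendrite and soma IPs, over both behaviours, no septin passed. Sept3 differed by a log2 of 1.92 (SE 1.11, limma adjusted p = 0.655), Sept7 by 0.75 (SE 1.10, adjusted p = 0.728) and Sept11 by 0.25 (SE 0.80, adjusted p = 0.886), beside a median of -0.36 over all genes. Of the 3054 genes 0% passed and 4.98% had an unadjusted p under 0.05. The 4 dendrite and 4 soma libraries overlapped for all 3 septins, where 1.60% of genes were higher in dendrite without overlap and 1.90% lower. Sept3 spanned 1.42 to 120.0 FPKM in dendrite IPs and 0.0569 to 15.7 FPKM in soma IPs. On simulated data for this comparison, 6% of 50 genes changed by a log2 of 2 were recovered, 32% of those changed by 4 and 80% of those changed by 6, with 5 false calls beside them. All changed genes were planted together, in normal noise with each gene's mean and spread. These rates therefore need not hold for a single septin in the real libraries.

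Between IPs and SNs, 3039 genes and 4 members were tested, Sept8 in addition. In the dendrite 0.0658% of genes passed, 2 genes and no septin, and 5.07% had an unadjusted p under 0.05. Sept8, which joins complexes in the SEPT6 position, had 2.17 and 0.660 FPKM in fear conditioned dendrite IPs, and a listed 0 and 0.139 FPKM in home cage dendrite IPs, all below the 2.33 and 5.42 FPKM of the fear conditioned and home cage dendrite SNs. Its log2 difference was -1.58 (SE 0.84, limma adjusted p = 1), and IPs below SNs without overlap were seen in 18.9% of genes and the reverse in 3.95%. In the single-end run Sept8 was listed at 0 in all 4 dendrite IPs, with 7.98 and 11.4 FPKM in the dendrite SNs. There its log2 difference was -2.74 (SE 0.79, adjusted p = 0.206). In the paired-end fit the 9 astrocyte markers tested of 10 (median log2 -1.64) and the 6 oligodendrocyte markers tested of 8 (median -2.02) also had negative differences, none past the threshold, and their part in the Sept8 values was not tested. Sept7 differed by 1.35 (SE 1.66), Sept3 by -0.01 (SE 1.54) and Sept11 by -0.83 (SE 0.88), each with an adjusted p of 1, beside a median of -0.14 over all genes. The sign of the Sept3 difference turned without fear conditioned dendrite IP 1, without IP 2 and without the fear conditioned dendrite SN, to at most 0.87. Sept5 plus Cdcrel-1 had 6.11 and 0.727 FPKM in fear conditioned dendrite IPs, and a listed 0 and 0.419 FPKM in home cage dendrite IPs, against 3.92 and 4.27 FPKM in the dendrite SNs (log2 -1.40, SE 0.84, adjusted p = 1).

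In the soma 1 SN stands for the unbound RNA. No gene passed there (0%), and 1.02% had an unadjusted p under 0.05. The log2 difference of IPs from the SN was -1.88 (SE 2.07) for Sept3, 0.41 (SE 2.23) for Sept7, -0.79 (SE 1.12) for Sept8 and 0.77 (SE 1.18) for Sept11, each with a limma adjusted p of 0.9996. The lone SN is assumed to vary like the other groups. Sept5 plus Cdcrel-1 had 2.59 and 4.39 FPKM in fear conditioned soma IPs, and 0.0367 FPKM and a listed 0 in home cage soma IPs, against 4.92 FPKM in the soma SN (log2 -1.42, SE 1.13, adjusted p = 0.9996). Between dendrite and soma SNs, where 0% of genes passed and 1.32% had an unadjusted p under 0.05, Sept11 differed by 1.94 (SE 1.28), Sept8 by 0.32 (SE 1.22), Sept3 by 0.11 (SE 2.25) and Sept7 by -0.10 (SE 2.42), each with an adjusted p of 0.9997. The Sept11 difference was -0.25 (SE 2.02) in the single-end table and -1.42 (SE 2.47) in the 3′ UTR part.

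**Figure D4:**
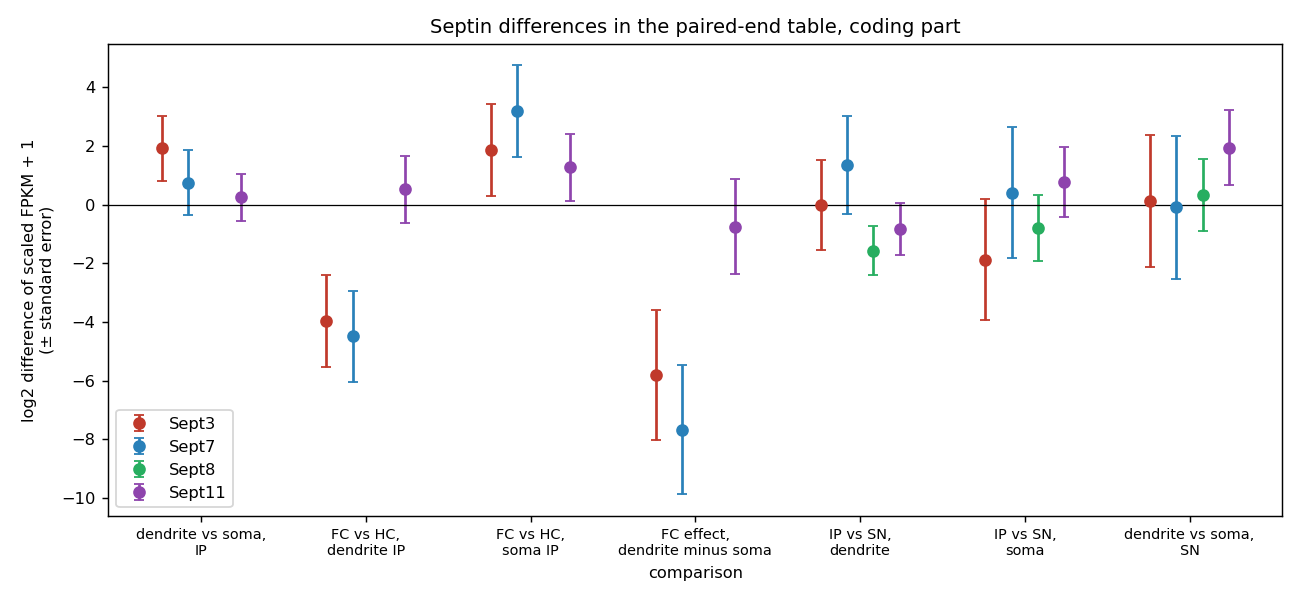
Log2 differences of scaled FPKM + 1 (points, bars ± 1 standard error of the limma fit) for the septins that passed the expression minimum, by comparison, in the paired-end coding part; IP immunoprecipitate, SN supernatant, FC fear conditioned, HC home cage, and Sept8 was tested with the supernatants alone. Sept3 and Sept7 lie below 0 for fear conditioning in dendrite (-3.97 and -4.49) and above 0 in soma (1.86 and 3.19); the dendrite contrast and the difference of effects are drawn as a description only.

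Sept4, of the SEPT2 group, is known from sperm and from glia, in Bergmann glia of the cerebellum. It had 2.86 and 1.71 FPKM in fear conditioned dendrite IPs and was listed at 0 in both home cage dendrite IPs, in the paired-end and in the single-end run (4.03 and 1.75 FPKM in the fear conditioned dendrite IPs there). In the soma it had 0.167 and 0.114 FPKM in fear conditioned IPs and 0.0936 and 0.0612 FPKM in home cage IPs, about 5.21, 5.59, 2.08 and 1.42 fragments. In the SNs it had 3.54 FPKM in fear conditioned dendrite, 3.79 FPKM in home cage dendrite and 0.341 FPKM in fear conditioned soma. Oligodendrocyte markers (8 genes) summed to 136 and 40.1 FPKM in fear conditioned dendrite IPs, 5.60 and 14.3 FPKM in home cage dendrite IPs, and 158, 148 and 9.51 FPKM in these SNs, and to 93.7 FPKM in fear conditioned soma IP 1, where Sept4 was at 0.167 FPKM. In the single-end run Sept4 was at 3.68 FPKM in fear conditioned soma IP 2 with a marker sum of 3.96 FPKM. There it was at 1.08 FPKM in home cage soma IP 1 with a sum of 461.9 FPKM. The paired-end run of these preparations gave other values. Sept4 was at 0.114 FPKM with a sum of 2.01 FPKM, and at 0.0936 FPKM with a sum of 20.6 FPKM. Sept4 and the oligodendrocyte sum thus did not go together in every library of a run, and the runs differed. Astrocyte markers summed to 356, 287 and 17.8 FPKM in the SNs. In dendrite IPs they summed to 438 and 161 FPKM in fear conditioned and to 134 and 299 FPKM in home cage ones, where Sept4 was listed at 0. Sept4 and the astrocyte sum thus did not go together in every library either. Of the 8 oligodendrocyte markers, 8 and 5 were above 0 in fear conditioned dendrite IPs and 4 and 6 in home cage dendrite IPs. Those listed at 0 included Mog and Ugt8a in fear conditioned dendrite IP 2, and Cldn11 in both home cage dendrite IPs. The others listed at 0 in these IPs are not named here. The part of these cells in the Sept4 values was not tested. The 3′ UTR part of Sept4 was listed at 0 in all 22 samples; it measures 567 bases in 3 models and 26 bases in 2 others.

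Sept2, after which its group is named and which is widely expressed, had 0.326 FPKM and a listed 0 in fear conditioned dendrite IPs and 2.36 and 4.63 FPKM in home cage dendrite IPs, without overlap. It was at or below 0.367 FPKM in all soma IPs. In the single-end run it was at 0.840 FPKM and listed at 0 in fear conditioned dendrite IPs against 0.350 and 31.9 FPKM in home cage dendrite IPs. Its 3′ UTR part was higher in fear conditioned dendrite IP 1, at 6.41 FPKM, than in the home cage dendrite IPs, at 0.307 and 0.0253 FPKM, and was listed at 0 in fear conditioned dendrite IP 2.

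In the paired-end coding part, Sept6, Sept8 and Sept9 were above 0 in more fear conditioned than home cage IPs. Sept6 was at 0.590 FPKM and listed at 0 in fear conditioned dendrite IPs, at 0.481 and 2.37 FPKM in fear conditioned soma IPs, and listed at 0 in all 4 home cage IPs. Sept8 was at 2.24 and 6.34 FPKM in fear conditioned soma IPs and listed at 0 in both home cage soma IPs. Sept9, which bundles actin filaments and binds microtubules, was at 1.15 and 0.595 FPKM in fear conditioned dendrite IPs and 0.124 and 0.629 FPKM in fear conditioned soma IPs, and in home cage IPs it was above 0 in dendrite IP 2 alone, at 0.133 FPKM. The 3′ UTR part of Sept8 went another way, with 0.867 FPKM and a listed 0 in fear conditioned dendrite IPs and 2.20 and 0.0165 FPKM in home cage dendrite IPs, and it was above 0 in both home cage soma IPs as well. The row of Sept5 was at 0.263 and 0.310 FPKM in fear conditioned dendrite IPs and listed at 0 in the other 6 in the paired-end run. In the single-end run that row was listed at 0 in both fear conditioned dendrite IPs. There it had 11.9 FPKM in home cage dendrite IP 2, 11.9 FPKM in fear conditioned soma IP 2 and 0.352 FPKM in home cage soma IP 2. These genes were below the expression minimum among the IPs, and the fear conditioned IPs had more genes above 0 (5916 to 11726) than the home cage IPs (3098 to 4807); the part of this difference in the counts of 0 was not tested.

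Of the other septin genes, Sept1, a SEPT2 group member known from lymphocytes, was listed at 0 in all 3 paired-end SNs. It had 0.0767 and 6.25 FPKM in fear conditioned dendrite IPs, and 11.1 FPKM and a listed 0 in home cage dendrite IPs. The single-end run gave 33.2 FPKM in fear conditioned soma IP 1, where the paired-end run gave 0.896 FPKM. Sept10 was at or below 0.505 FPKM in the paired-end coding part, and Sept12 and Sept14 were listed at 0 in all 22 samples.

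Proteins that bind or steer septins were listed from knowledge of the pathway: 20 genes, among them the small GTPase Cdc42 and its effectors. Of the 20, 8 were tested among the IPs and with the SNs, and none passed in any of the 7 comparisons. Their median log2 difference between fear conditioned and home cage IPs was -0.52 in dendrite and 0.38 in soma, beside medians of 0.10 and 0.54 over all genes. The 4 with the highest mean level were Slc1a3, an astrocyte glutamate transporter that binds Sept2 and is also on the astrocyte list, Rhoa, Hdac6, a deacetylase of tubulin, and Cdc42. Cdc42 had 2.08 and 2.94 FPKM in fear conditioned dendrite IPs and 1.26 and 5.97 FPKM in home cage dendrite IPs. In the soma it had 5.49 and 8.40 FPKM in fear conditioned IPs, and 1.40 FPKM and a listed 0 in home cage IPs. Rhoa had 5.13 and 0.600 FPKM in fear conditioned dendrite IPs and 36.6 and 0.0521 FPKM in home cage dendrite IPs. Slc1a3 had 21.7 and 5.93 FPKM in fear conditioned dendrite IPs and 0.219 and 76.5 FPKM in home cage dendrite IPs. Hdac6 was at 24.2 FPKM in home cage soma IP 1 and at or below 0.467 FPKM in the other 10 libraries.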

How the data were processed

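RNA from tagged ribosomes and from supernatants was amplified with the Nugen Ovation V2 kit, treated with a single-strand nuclease and made into TruSeq libraries, per the labels' protocols; no molecular identifiers are named, so reads are not independent molecules. CASAVA 1.9, STAR 2.1.1d, Cufflinks 2.0.2 and build mm9 are named in the submitters' processing notes; their order and settings are not stated in what was read here. The authors deposited FPKM values in a paired-end and a single-end table, per the file headers. Whether strand was used in counting is not stated either.

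Values below 0.0001 FPKM (3257 in the paired-end coding part), under the value of 1 read, were set to 0; this was chosen after the data were seen. Libraries were divided by their median ratio to the geometric mean over genes above 0 in all of them (800 genes for the 8 IPs, 707 for all 11). Levels in the text are FPKM as deposited; fits used log2(scaled FPKM + 1), so fold changes of low genes are understated. limma 3.58.1 (R 4.3.3) fitted 4 groups of 2 IPs (4 residual degrees of freedom), or all 11 libraries in 4 location-fraction groups, adding behaviour as a covariate (6), with trended moderation, two-sided tests and a threshold of an adjusted p of 0.05. The fit was tested on simulated data. Depth came from FPKM spacing in genes with 1 model of at least 1500 bases: 88.9 to 96.4% of low values lay within 0.15 reads of a whole number. Counting intervals were not computed, since FPKM hold no counts.

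The members and lists were chosen with earlier results of these data known. All septin rows are named, and the 4 partners with the highest mean. Cell type markers are given as sums and counts above 0, with some of those listed at 0 named as examples. Alternatives were pseudocounts of 0.1 and 5, expression minima of 0 and 5, no scaling, the single-end table, the 3′ UTR part, robust moderation, a replicate block and leaving out libraries.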

Additional observations from a re-analysis of the deposited data

Results flagged for a closer look

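Within the 4 dendrite or 4 soma IPs, 18 groups of values of the 9 members were checked for a library far from the others by Dixon's criterion at 95%, and 3 were past it. Chance gives about 1 in 20 for groups of like libraries, but each group here mixes 2 fear conditioned with 2 home cage IPs, and the dendrite values of the family entered its choice, so no rate is read from the 3. Sept3 reached 110.5 scaled FPKM in home cage dendrite IP 1, with the next library at 18.6. Sept3 reached 13.2 scaled FPKM in fear conditioned soma IP 1, with the next at 1.49. Sept6 was at 0.271 scaled FPKM in fear conditioned dendrite IP 1 and listed at 0 in the other dendrite IPs, which alone puts it past the criterion.

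After scaling, the fear conditioning effect ran in opposite directions in dendrite and soma, in every library of each pair, for 3 members. This was looked for in the members alone, so the share of all genes with opposite directions is not known. Of the 3054 genes tested, fear conditioned dendrite IPs lay lower without overlap in 8.19% and higher in 24.7%. Fear conditioned soma IPs lay higher in 34.3% and lower in 7.40%. The log2 effect in dendrite minus that in soma was -5.82 for Sept3 and -7.67 for Sept7, both lower in fear conditioned dendrite and higher in fear conditioned soma libraries. For Sept4 it was 1.22, from a fit with no expression minimum, with soma values of at most 0.167 FPKM. In FPKM as deposited, Sept4 was higher in fear conditioned IPs in both locations, so its opposite direction appears with the scaling and rests on about 1.42 to 5.59 fragments per soma IP. These differences were not tested for the members, since the choice of members used the dendrite contrast.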

How the results depend on the processing

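Over 463 alternative values of the tested septins, 39 had another sign than the value reported. Most settings change the same paired-end fit, so this share does not describe the other readouts. In the single-end table, the 3′ UTR part or both, the Sept11 difference took the other sign in every comparison, and those of Sept3 and Sept7 in some. The values, and the counts of septins called below, take in the dendrite contrast and the difference of effects. For these they are a description and no test of the members. The count of septins called was 0 in every comparison and under every alternative but 1: with no expression minimum, 1 septin, the Sept5 row, was called between soma IPs and the soma SN (log2 -1.14, limma adjusted p = 0.0149), where 892 of 16282 genes were called. The Sept5 row was listed at 0 in all 4 soma IPs of the paired-end run. In the single-end run it had 11.9 FPKM in fear conditioned soma IP 2 and 0.352 FPKM in home cage soma IP 2. Summed with Cdcrel-1 under that setting, the log2 difference was -1.42 (SE 0.75) with an adjusted p of 0.821; the cause was not tested. With each library left out in turn, the Sept3 dendrite difference of fear conditioned and home cage IPs ranged from -5.22 to -2.71. That of Sept7 ranged from -5.66 to -3.31. The family was chosen on this contrast in these same libraries, so the ranges lend it no weight. The Sept3 difference between dendrite IPs and SNs took the other sign under 7 of 21. With a replicate block 0 septins were called in each comparison. The correlation of deviations between dendrite and soma IPs of one label was -0.011 to 0.048, so the labels share a number and pairing was not assumed. Pairing of an SN with its IP was not checked in this way. In home cage soma IP 2 the 3 members above 0 rest on about 1 fragment each. Its estimated depth was 14.2 M fragments, with 3098 genes above 0, beside 5.69 M and 3219 genes in home cage dendrite IP 1. The part of depth in these low values was not tested.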
